A study of Mus musculus with 2 samples.

Results

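Among 5225 cell barcodes from a sort for immune cells of MC38 tumours, 174 were selected on measured values, because they had transcripts of inflammatory monocytes and at most 1 transcript of the complement component C1q, and these are the C1q-low monocytes described here. MC38 is a mouse colon carcinoma line that is grown as tumours in mice. The tumours were taken on day 21, immune cells were sorted by flow cytometry, and droplet-based 3′ single-cell libraries were made. The series has 1 group of 2 replicate libraries, called replicate 1 and replicate 2 as in the labels, which give no treatment or genotype and 1 time point. In their file names the libraries differ by a term of unstated meaning, which was not used here, so a difference between the libraries beyond replication cannot be told apart from the spread between replicates. The strain, the age of the mice, the markers of the sort and the number of animals per library are not given in the labels. Replicate 1 held 1886 UMIs (unique molecular identifiers, each counted as 1 captured transcript) of Xist and 0 of Ddx3y, and replicate 2 held 0 and 207. These counts differ in a way that 1 shared animal could not give.

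A monocyte was a barcode with 300 or more detected genes, under 10% mitochondrial UMIs and 3 or more UMIs summed over Ly6c2, Plac8, Chil3 and Ms4a4c. The sum of C1qa, C1qb and C1qc had to be 1 or less. Cd3d, Cd3e, Cd3g, Siglech, Xcr1 and Ccr7, which mark T cells, plasmacytoid cells and other dendritic cells, had to be at 0, and S100a8 plus S100a9, abundant in neutrophils, under 5. The rule was met by 59 of 2388 barcodes in replicate 1 (2.47%, exact 95% binomial interval 1.89 to 3.18) and by 115 of 2837 in replicate 2 (4.05%, 3.36 to 4.85). The mean share was 3.26% ± 1.12 (SD, n = 2). The intervals cover counting error only, and they do not overlap. A share of sorted barcodes depends on the sort and says nothing of cell numbers in the tumour.

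Classical monocytes leave the bone marrow with the help of the chemokine receptor Ccr2, circulate in the blood and enter inflamed tissue and tumours. There they can turn into macrophages or cells that resemble dendritic cells. On that path they lose the surface protein Ly6c2 and gain C1q, apolipoprotein E and lysosomal enzymes. Ly6c-high monocytes are known for the secreted chitinase-like protein Chil3, the haemoglobin-binding protein haptoglobin (Hp), calcium-binding S100 proteins and strong responses to interferon.

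Most of the gate rested on Plac8, a small cysteine-rich protein of myeloid and lymphoid cells. A Plac8 UMI was found in 51 of 59 monocytes of replicate 1 and in 110 of 115 of replicate 2. Ly6c2 was found in 27 and 59 monocytes, Ms4a4c in 28 and 47, and Chil3 in 22 and 25. Plac8 was the only gene of the 4 in 10 and 24 monocytes, and all 4 were found together in 5 and 4. A total of 23 and 42 monocytes had neither Ly6c2 nor Chil3. The sum over the 4 genes had a median of 6 and 5 and a maximum of 30 and 19.

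The sum was exactly 3 in 12 and 30 monocytes, and exactly 2 in 21 and 41 barcodes that met every other condition. S100a4, a calcium-binding protein of motile cells, stood at 4309 and 2593 UMIs per 1000000 UMIs of the cells summed (CPM) just inside and at 4637 and 2986 just outside. Ms4a7, a membrane protein of macrophages, stood at 0 and 57.0 CPM inside and at 0 and 60.5 outside. At the other limit, 10 and 44 monocytes had a C1q sum of 1, while 0 and 32 barcodes with a sum of 2 met all else. With a C1q sum of 5 or more there were 69 and 173 barcodes with the same monocyte genes, so cells with both programs outnumbered the C1q-low ones in each library. With a C1q sum of 1, Apoe stood at 1312 and 850 CPM, and with a sum of 2 it stood at 1510 CPM in replicate 2.

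**Figure D1:**
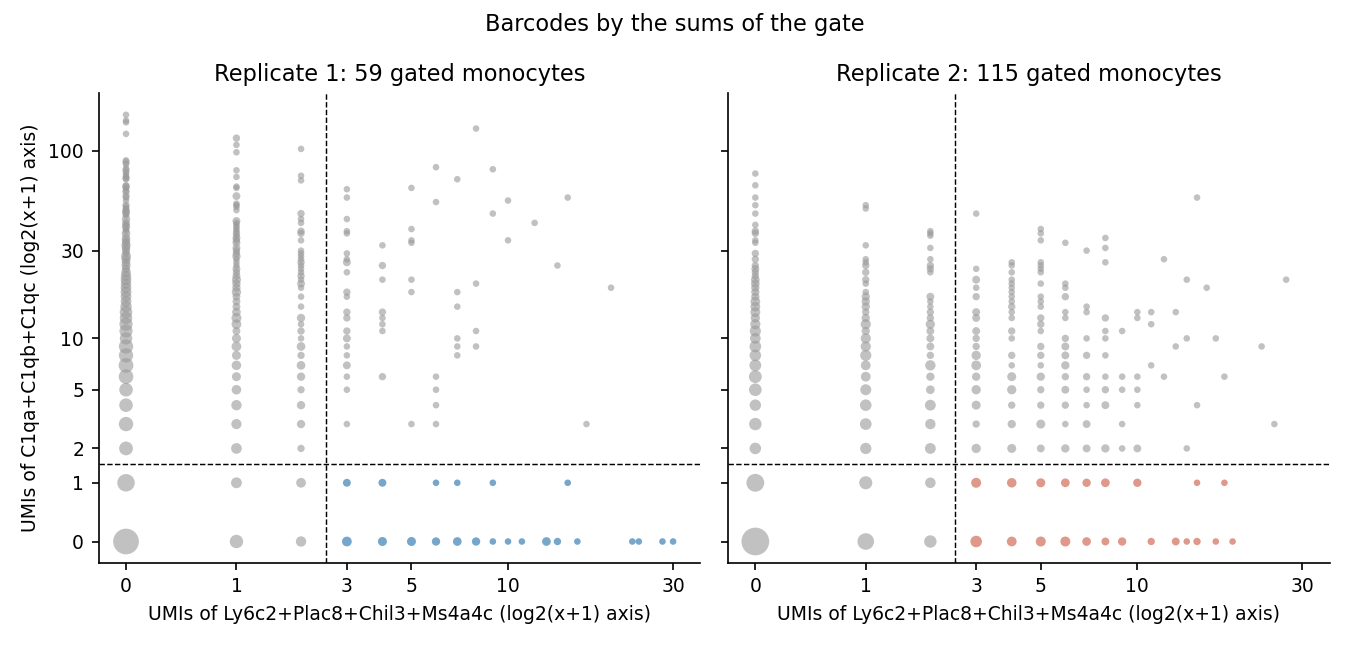
Every barcode of each library that passed the cell filter, the 6 excluded genes and the S100 limit, placed by its UMIs of the monocyte genes (x axis) and of C1q (y axis, both on log2(x+1) scales); the area of a point grows with the number of barcodes and the dashed lines are the limits. The 59 and 115 coloured barcodes at the lower right are the gated monocytes, and above the limit 5 and 68 barcodes had a C1q sum of 2 to 4.

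The 5 marker genes given for these cells were all found above the level in C1q macrophages, defined as barcodes with a C1q sum of 5 or more and at most 1 UMI of the monocyte genes (819 and 368 barcodes). These values chose or define the class, so they are a description and were not tested. Chil3 (chromosome 3, 106147554 to 106167564, GRCm38) stood at 987 CPM in replicate 1 and 315 in replicate 2, against 4.19 and 4.27 in the macrophages. Ly6c2 (chromosome 15, 75108158 to 75111970) stood at 400 and 766 CPM against 10.5 and 32.1. Its close relative Ly6c1 shares much of the sequence, so the split between them is uncertain. Plac8 stood at 2504 and 3717 CPM against 16.1 and 124. Hp and Ifitm6 were not part of the gate.

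Hp stood at 112 CPM (exact 95% Poisson interval 57.7 to 195) and 75.1 CPM (36.0 to 138) in the monocytes, and at 4.89 and 2.14 CPM in the macrophages. It was seen in 9 of 59 and 8 of 115 monocytes, or 15.3% and 6.96%, against 0.855% and 0.272% of macrophages. Ifitm6, an interferon-induced membrane protein of monocytes, stood at 177 and 173 CPM against 4.19 and 34.2. It was seen in 13 of 59 and 17 of 115 monocytes and in 0.733% and 3.53% of macrophages. After thinning every cell to 500 UMIs the Ifitm6 shares were 3.39% and 6.96% in the monocytes and 0.244% and 1.90% in the macrophages. Both markers were thus above the macrophage level in each library. T cells stood at 0 and 36.0 CPM for Ifitm6, and 22 barcodes of replicate 1 with at most 2 UMIs of the monocyte genes and at least 3 of Mgl2, Napsa and Cd209a, called type 2 dendritic-like, stood at 213 CPM. Hp, Ly6c2 and Chil3 were at 0 in those 22. Hp stood at 0 and 2.22 CPM in 654 and 938 barcodes, 27.4% and 33.1% of all, that are called Ptprc-negative here. These had no UMI of the leukocyte gene Ptprc, of the 4 monocyte genes or of the 6 excluded genes, at most 1 UMI of C1q and of Lyz2, and fewer than 5 of S100a8 plus S100a9.

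The label of monocytes was checked against marker lists, and the picture was mixed. All 12 genes of a monocyte marker list were detected in each library, with a summed level of 5577 and 6795 CPM, against 625 and 795 CPM in macrophages. Of that sum 4413 and 5293 CPM came from the 4 gate genes, which are in the list, so it is no support for the label. The 12 macrophage markers summed to 2383 and 1779 CPM against 30925 and 17448 CPM, with Mertk at 0. They include the 3 C1q genes, which the rule fixed and which gave 10539 and 9549 CPM of the macrophage sums. Ccr2 stood at 307 and 300 CPM and had UMIs in 18 and 28 monocytes. The shared myeloid signalling adaptors Tyrobp or Fcer1g were found in 55 of 59 and 108 of 115 monocytes. Of 9 neutrophil markers 3 and 7 were detected, at a summed 112 and 481 CPM against 67.1 and 316, and Retnlg and Cxcr2 were at 0 in both libraries. Siglecf, Epx and Prg2 of eosinophils were also at 0. Of 6 B cell markers 2 were detected, Ighm and Igkc, with 4 and 8 UMIs in 3 and 7 monocytes, or 37.2 and 60.1 CPM against 147 and 87.6 in macrophages. Of 4 epithelial genes Cdh1 had 1 UMI in each library and Krt8, Krt18 and Epcam were at 0. The Ptprc-negative barcodes held 2 and 7 UMIs of these 4, so the list says little about tumour cells here.

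Other lymphoid and dendritic genes were present in part of the cells. Of 10 T cell markers 7 and 6 were detected, in 4 and 23 monocytes, with a summed level of 149 and 315 CPM against 66.4 and 130 CPM in macrophages; the Cd3 genes were at 0 by the rule. Of 9 NK markers 4 and 6 were detected; they summed to 177 and 428 CPM against 79.6 and 346, with Ncr1, Klrb1c and Eomes at 0. Mgl2, Napsa or Cd209a, genes of type 2 dendritic cells, were found in 23 and 28 monocytes, and 9 and 2 had 3 or more of these UMIs. The 8 markers of that type summed to 1331 and 691 CPM against 300 and 536, with Zbtb46 at 0 in replicate 1. The 5 markers of type 1 dendritic cells, among them the widely expressed Cst3, summed to 7467 and 2583 CPM against 3727 and 2047, with Xcr1 at 0 by the rule and Clec9a at 0 in replicate 1. The 5 of plasmacytoid cells summed to 1015 and 526 CPM against 674 and 412, with Siglech at 0 by the rule. The 4 collagen and decorin genes of fibroblasts summed to 55.9 CPM in replicate 1 and 623 in replicate 2, where 14 of 115 monocytes held them, against 124 and 113 CPM in macrophages. The part of other cells in the results below was not tested beyond the values given beside them.

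The monocytes carried 107412 UMIs in replicate 1 and 133188 in replicate 2, with a median of 1481 and 951 UMIs and 539 and 494 genes per cell. A count of 0 thus allowed up to 27.9 and 22.5 CPM, the worth of 3 UMIs. Gm42418, a locus that overlaps ribosomal RNA, took 17.2% and 7.83% of their UMIs, and 12.7% and 6.77% of those of the macrophages. After it, Tmsb4x, which binds actin monomers, was highest at 24085 and 14468 CPM, followed by Malat1 at 8556 and 13259 CPM and Actb at 6219 and 8357. S100a6, Cst3 and the class II invariant chain Cd74 were also among the top 10 outside mitochondrial and ribosomal protein genes. S100a6 stood at 5716 and 5886 CPM.

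The monocytes were compared with the C1q macrophages of the same library, on UMIs summed per class and library, with the library as a term in edgeR's quasi-likelihood test. Of 3381 tested genes, 61 were higher (1.80%) and 72 lower (2.13%) at an adjusted p under 0.05, together 3.93% of the genes tested. Both classes were cut on C1q and monocyte genes, so genes whose RNA goes with either could differ through the cut. All fold changes are log2 values with their standard error (SE). The SE was worked back from the test, as the absolute log2 fold change divided by the square root of edgeR's F statistic. In these sums fewer cells with a transcript and less of it per cell cannot be told apart. There was 1 residual degree of freedom; without the library term 7 genes passed (0.207%; 1 higher, 0.0296%), and DESeq2 called 36 of 1476 (2.44%). The 7 were Slpi, higher, and Mrc1, Pf4, Cd81, Ccl12, Selenop and Ms4a7, lower. Of the 61 genes higher in the main fit, 58 had a CPM above the macrophages in both libraries. In either library, 13 had a higher CPM in Ptprc-negative barcodes than in monocytes, and 16 in T cells. Such shares over all tested genes were not computed. The 61 include Crabp1, Lgals7 and Sparc, at 1073, 721 and 574 CPM in Ptprc-negative barcodes of replicate 2. Ms4a4b, also among them, stood at 221 and 365 CPM in T cells.

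The list of classical monocyte genes moved in 1 direction. Of 21 members tested, 11 were higher and 0 lower, against 1.80% higher over all genes, and the median log2 fold change was 1.23 against -0.01 over all tested genes. The list was chosen with earlier results of these libraries known, so its direction is no independent support. Its 22 genes summed to 18629 and 19258 CPM in monocytes and to 8985 and 8887 in macrophages. In T cells they summed to 20534 and 21406 CPM and in Ptprc-negative barcodes to 25859 and 28743, so the summed level was not particular to the monocytes. Among the 11 were matrix genes, S100 genes and 2 C-type lectins.

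Thbs1, or thrombospondin-1, a secreted glycoprotein of platelets and monocytes, stood at 93.1 and 533 CPM against 14.7 and 94.0. It was higher by 2.59 (SE 0.34, edgeR adjusted p = 7.94e-06), although its level differed several-fold between libraries in both classes. Gsr, which regenerates reduced glutathione, rose by 2.37 (SE 0.45, edgeR adjusted p = 0.00126), at 93.1 and 210 CPM against 13.3 and 51.3. In both genes each monocyte value was above the macrophage value of the same library, but for Thbs1 the ranges over libraries overlapped. Thbs1 was not particular to the C1q-low cells. The 5 and 68 barcodes with a C1q sum of 2 to 4 that met all else held 200 and 698 CPM, on 2 and 59 UMIs. With a monocyte gene sum of 2, just outside the gate, it stood at 0 and 444 CPM, against 47.9 and 171 with a sum of 3.

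S100a4 stood at 5065 and 2936 CPM against 1620 and 671 and rose by 1.95 (SE 0.23, edgeR adjusted p = 1.85e-06). S100a6, S100a10 and S100a11 rose by 1.29, 1.27 and 1.41. S100a4 and S100a6 were high in other classes too. The Ptprc-negative barcodes held 7845 and 3909 CPM of S100a4 and 15844 and 19874 of S100a6, and the T cells 6078 and 3722 CPM of S100a4, all above the monocytes.

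Clec4e and Clec4d, receptors for microbial glycolipids, rose by 1.51 (SE 0.43) and 1.22 (SE 0.35), with edgeR adjusted p-values of 0.0431 and 0.0439. Clec4e stood at 46.6 and 278 CPM against 16.8 and 100. Fn1, or fibronectin, rose by 1.23 (SE 0.33, edgeR adjusted p = 0.0257), but its log2 ratio was 0.24 in replicate 1 and 2.13 in replicate 2. In replicate 2 the Ptprc-negative barcodes held 809 CPM of Fn1, more than the 488 of the monocytes. Ccr2 itself, at 307 and 300 CPM against 162 and 229, did not pass (0.72, SE 0.28, edgeR adjusted p = 0.212). F13a1, the coagulation factor XIII subunit made by monocytes, did not pass either (0.34, SE 0.40, edgeR adjusted p = 0.810).

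**Figure D2:**
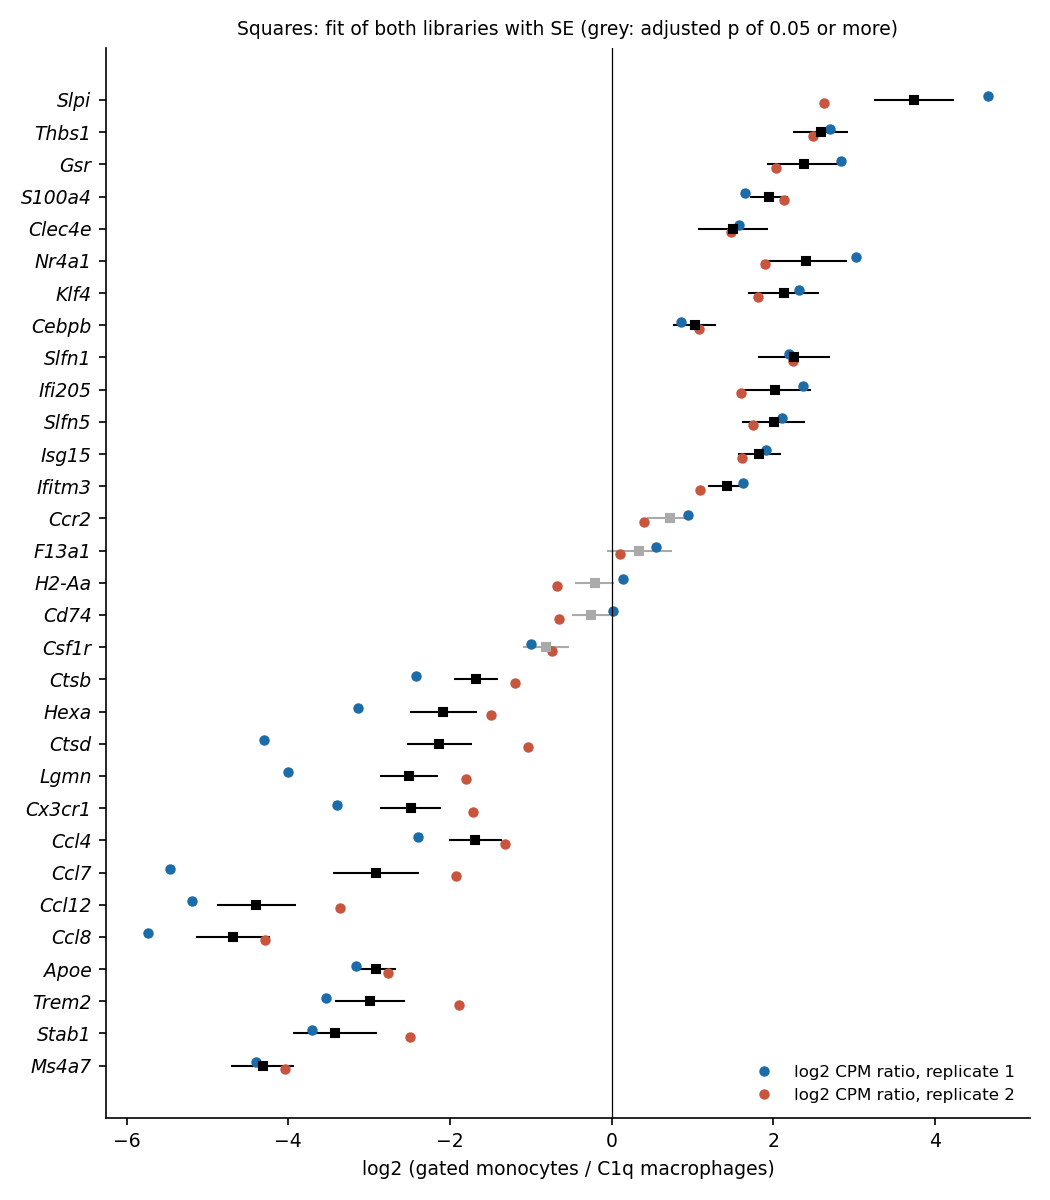
Log2 ratio of 31 genes in gated monocytes over C1q macrophages (x axis, log2 scale): squares with bars are the fit of both libraries and its SE, black where the adjusted p was under 0.05 and grey where not, and coloured points are the CPM ratios of each library (a prior of 0.5 UMI is added, so a ratio against 0 UMIs is no bound). Monocyte and interferon genes lie at the upper right, class II genes and Ccr2 near 0, and chemokine, lysosome and macrophage genes at the lower left, where replicate 1 lies farther left than replicate 2 for every gene shown from Ctsb down.

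Of the non-classical (patrolling) monocyte genes, 6 could be tested, and 1 was higher and 1 lower, against 1.80% and 2.13% over all genes. Nr4a1, a nuclear receptor needed by patrolling monocytes and also an immediate early gene, stood at 83.8 and 128 CPM against 10.5 and 34.2 (2.41, SE 0.51, edgeR adjusted p = 0.00364). Cx3cr1, the fractalkine receptor, which patrolling monocytes and many macrophages carry, stood at 46.6 and 82.6 CPM against 539 and 282 (-2.49, SE 0.38, edgeR adjusted p = 7.75e-05). Ace, Treml4 and Cd300e were at 0 in replicate 1.

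Transcription factors followed with 3 higher and 1 lower of 22 tested, where the background was 1.80% and 2.13%. Klf4, required for monocyte differentiation, stood at 140 and 128 CPM against 28.6 and 36.3 (2.13, SE 0.44, edgeR adjusted p = 0.00260); the Ptprc-negative barcodes held 30.8 and 118 CPM. Cebpb, a factor of monocyte survival and inflammatory genes, stood at 270 and 833 CPM against 152 and 395 (1.03, SE 0.26, edgeR adjusted p = 0.0192). Maf, a factor of macrophage identity, fell by 2.04 (SE 0.36, edgeR adjusted p = 0.000527), at 37.2 and 158 CPM against 395 and 432. The myeloid master factor Spi1 (-0.26, edgeR adjusted p = 0.810) and Irf8 (0.18, edgeR adjusted p = 0.891) did not pass.

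Nr4a1 also belongs with genes that cell dissociation can induce. In that list, 2 of 19 were higher, against 1.80% of all genes: Egr1, at 149 and 285 CPM against 47.5 and 120, and Jun, at 540 and 571 against 298 and 246. The summed level of the list was 5511 and 8882 CPM in monocytes and 4724 and 6852 in macrophages. Its part in the Nr4a1 and Klf4 results was not tested.

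Interferon-induced genes were the other group with many higher members. Of 38 tested, 10 were higher and 0 lower, with a median log2 fold change of 0.72, against 1.80% higher and a median of -0.01 over all tested genes. The 10 were Isg15, Slfn1, Slfn5, Ifi203, Ifi205, Ifi211, Ifi27l2a, Ifitm3, Samhd1 and Zbp1. Isg15, a ubiquitin-like protein that is attached to other proteins after interferon, stood at 568 and 556 CPM, against 152 and 182 in the macrophages (1.83, SE 0.26, edgeR adjusted p = 3.67e-05). Both monocyte values lay above both macrophage values, and Ptprc-negative barcodes held 92.5 and 83.6 CPM.

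Slfn1 and Slfn5, members of the Schlafen family, stood at 102 and 143 CPM and at 214 and 158 CPM. They rose by 2.26 (SE 0.45, edgeR adjusted p = 0.00193) and 2.01 (SE 0.39, edgeR adjusted p = 0.00156). Ifi205, a member of the Ifi200 family of nuclear DNA-binding proteins, stood at 130 and 135 CPM against 25.9 and 44.9 (2.02, SE 0.44, edgeR adjusted p = 0.00495). Its neighbours Ifi203 and Ifi211 rose by 1.42 and 1.48; these genes are similar, and reads may be split between them. Ifitm3, a membrane protein that blocks virus entry, was the most abundant, at 2206 and 3033 CPM against 715 and 1421 (1.42, SE 0.24, edgeR adjusted p = 0.000241). The double-positive cells, which met the monocyte sum and had a C1q sum of 5 or more, held 1788 and 2797 CPM of Ifitm3 and 636 and 346 CPM of Isg15. Irf7 and the other 27 tested members did not pass.

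The windows from 250 bases before to 50 after the RefSeq start sites (GRCm38.p6) were searched on both strands for GAAA followed, after any 2 bases, by another GAAA (TTTC and TTTC on the other strand), the core of the element that interferon-activated factors bind. Overlapping matches were counted. Of the 10 genes, 8 had an entry, and 6 of these 8 held a match (75.0%). So did 14 of 22 tested members that did not pass (63.6%), 155 of 2730 tested genes (5.68%) and 1079 of 27025 genes of the table (3.99%). The share was thus high in called and other members of the list alike; a match is a description and no binding was measured. The stretches of 60 bases around the first match before the start site are shown to let the sites be compared. They read 5′ to 3′ on the gene's strand, with the matched bases in capitals. Isg15 has 3 overlapping matches, the first 78 bases before the start site. Ifi205 and Ifi211 share the same 10 matched letters, and Ifi203 differs from them inside the free positions.
Isg15, chr4:156200862-156200921, minus strand: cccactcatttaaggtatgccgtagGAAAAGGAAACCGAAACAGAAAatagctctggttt
Ifi205, chr1:174031855-174031914, minus strand: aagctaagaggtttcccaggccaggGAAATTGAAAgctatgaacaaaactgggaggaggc
Ifi211, chr1:173913049-173913108, minus strand: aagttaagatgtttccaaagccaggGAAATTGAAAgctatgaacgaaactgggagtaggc
Ifi203, chr1:173942493-173942552, minus strand: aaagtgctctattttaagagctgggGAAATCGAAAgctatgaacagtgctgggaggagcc
Slfn5, chr11:82951922-82951981, plus strand: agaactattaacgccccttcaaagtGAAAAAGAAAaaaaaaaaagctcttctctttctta

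In Ifitm3 the 2 matches lay after the start site. Samhd1 and Slfn1 had none in their windows, and Ifi203 had a match in 1 of its 2 windows.

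Slpi, the secretory leukocyte protease inhibitor, which protects tissue from neutrophil elastase, was 1 of the 7 genes that passed without the library term. It stood at 233 and 188 CPM on 25 UMIs in each library, against 9.08 and 29.9 CPM (3.74, SE 0.49, edgeR adjusted p = 7.76e-06). It was the only gene that passed of 5 tested granule and antimicrobial genes, beside 1.80% higher over all genes. Ptprc-negative barcodes held 0.541 and 6.66 CPM.

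**Figure D3:**
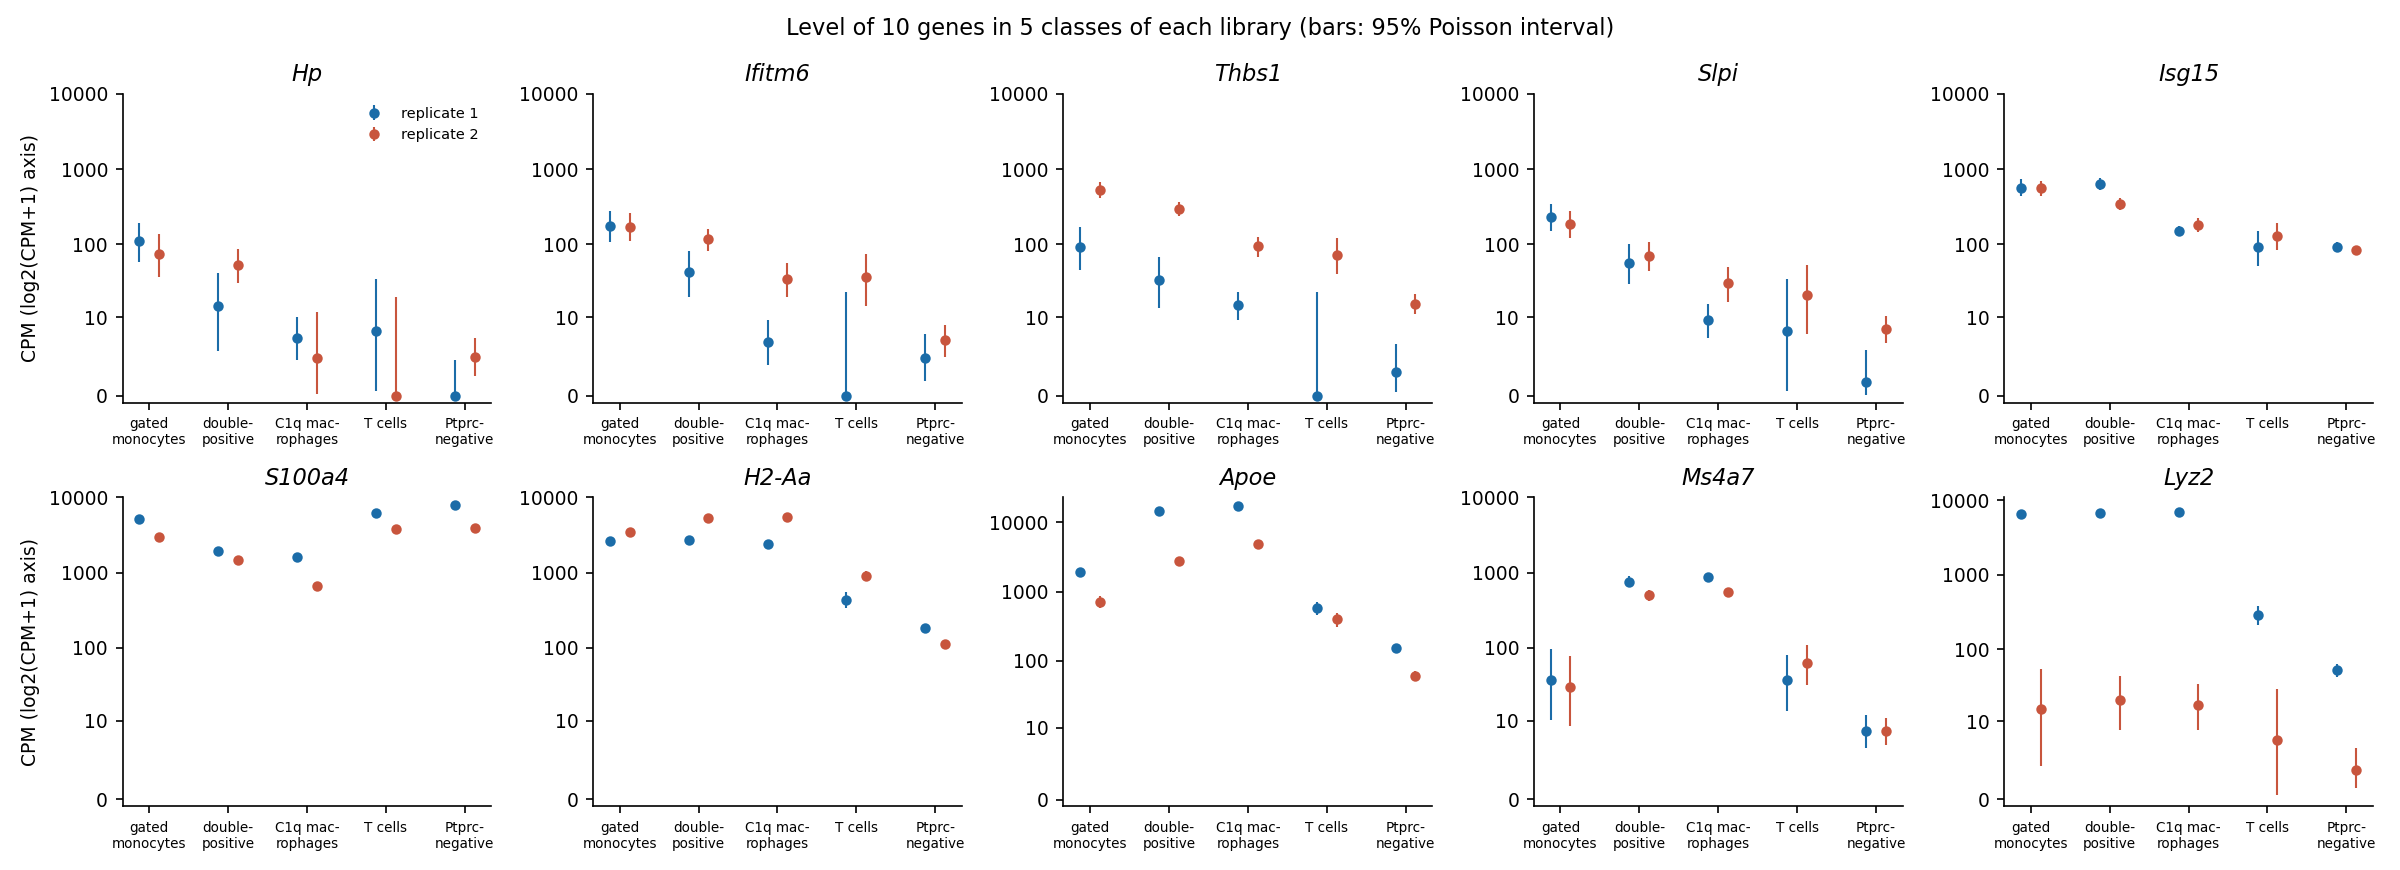
CPM of 10 genes (y axis, log2(CPM+1) scale) in 5 classes of each library; points are the summed cells of a class, bars their exact 95% Poisson intervals, blue for replicate 1 and red for replicate 2. Hp, Ifitm6, Thbs1, Slpi and Isg15 are higher in monocytes than in macrophages, S100a4 is higher in T cells and Ptprc-negative barcodes than in monocytes, Apoe and Ms4a7 are high in both C1q classes, and Lyz2 is near 0 in replicate 2 in every class shown.

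Genes of macrophage differentiation were lower. Of 23 tested, 15 were lower and 1 higher, with a median of -2.04, against a background of 2.13% lower. Apoe, a lipid carrier, stood at 1899 and 713 CPM against 17074 and 4864 (-2.91, SE 0.25, edgeR adjusted p = 3.12e-09). Ms4a7, on 4 UMIs in each library, stood at 37.2 CPM in replicate 1; the macrophages stood at 884 and 554 CPM (-4.31, SE 0.39, edgeR adjusted p = 9.78e-09). Trem2, a lipid-sensing receptor, had 5 and 4 UMIs, against 593 and 124 CPM in the macrophages (-2.99, SE 0.43, edgeR adjusted p = 3.67e-05). In all 3 genes each monocyte value lay below both macrophage values.

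The scavenger receptors Stab1 and Mrc1 had 2 and 2 and 1 and 5 UMIs in the monocytes, with log2 fold changes of -3.42 (SE 0.52, edgeR adjusted p = 7.20e-05) and -3.14 (SE 0.47, edgeR adjusted p = 5.62e-05). Fcrls and the folate receptor Folr2 had 0 UMIs in both monocyte sums. Against 3 UMIs over both sums, Fcrls was at least 14-fold and Folr2 at least 4.26-fold lower. Csf1r, the receptor for the growth factor of monocytes and macrophages, stood at 196 and 293 CPM against 398 and 492 and did not pass (-0.81, SE 0.28, edgeR adjusted p = 0.114). The member of this list that was higher was Spp1, or osteopontin, at 372 and 1336 CPM against 278 and 162 (1.85, SE 0.37, edgeR adjusted p = 0.00212). In replicate 1, 26 of its 40 monocyte UMIs came from 1 cell, and in replicate 2 the Ptprc-negative barcodes held 1511 CPM and the T cells 622.

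Of 19 lysosomal genes tested, 10 fell and 0 rose, with a median of -1.14, against 2.13% lower and a median of -0.01 over all tested genes. Lgmn, the protease legumain, stood at 37.2 and 210 CPM against 672 and 746 (-2.51, SE 0.36, edgeR adjusted p = 3.13e-05). The cathepsins Ctsd and Ctsb fell by 2.13 (SE 0.41, edgeR adjusted p = 0.00130) and 1.68 (SE 0.27, edgeR adjusted p = 0.000154). Hexa, a subunit of beta-hexosaminidase, fell by 2.08 (SE 0.41, edgeR adjusted p = 0.00195). The gap was wider in replicate 1, where the log2 ratio of Ctsd was -4.29, than in replicate 2, where it was -1.04; this difference between the libraries was not tested. The summed level of the list was 5251 and 9115 CPM in monocytes against 13097 and 16794 in macrophages.

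Chemokines fell in 5 of 13 tested genes and rose in 0, where 2.13% of all genes fell and 1.80% rose. Ccl8 and Ccl12, ligands of Ccr2 and related receptors, had 0 and 6 and 1 and 3 UMIs in the monocytes. They stood at 247 and 949 CPM and at 509 and 269 CPM in the macrophages. Their log2 fold changes were -4.68 (SE 0.46, edgeR adjusted p = 4.95e-08) and -4.40 (SE 0.49, edgeR adjusted p = 5.63e-07). Ccl7 and Ccl4 fell by 2.92 (SE 0.53) and 1.69 (SE 0.33), with edgeR adjusted p-values of 0.000803 and 0.00156. Cxcl16 had 0 UMIs in replicate 1 and 330 CPM in replicate 2, against 395 and 507. Ccl6, at 223 and 270 CPM, and Ccl9, at 149 and 143, did not pass and were near the macrophage levels of 170 and 338 and of 163 and 165. Cxcl10, at 233 and 285 CPM against 176 and 177, did not pass (0.61, edgeR adjusted p = 0.341).

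Of 11 chemotactic receptors 2 fell, beside 2.13% of all genes: Cx3cr1 and the complement receptor C3ar1 (65.2 and 60.1 CPM against 286 and 195; -1.85, SE 0.37, edgeR adjusted p = 0.00211). Of 15 phagocyte receptors 2 fell, against the same background: the inhibitory lectin Clec12a (-1.36, SE 0.36, edgeR adjusted p = 0.0254) and the IgG receptor Fcgr4 (-1.39, SE 0.40, edgeR adjusted p = 0.0447). Fcgr4 had 0 UMIs in replicate 1 and 375 CPM in replicate 2, against 177 and 665.

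In 8 lists no tested member passed. None of 8 class II genes passed: H2-Aa stood at 2616 and 3409 CPM against 2373 and 5446 (-0.21, SE 0.24, edgeR adjusted p = 0.810), and Cd74 at 4152 and 4678 against 4107 and 7361 (-0.25, SE 0.24, edgeR adjusted p = 0.751). For both the library ratios had opposite signs. The class II level of replicate 1 also differed widely between subsets of the monocytes, as given below. The other lists were 16 class I genes, 8 inflammatory cytokine genes, 7 subunits of the NADPH oxidase, 8 suppressive genes such as Arg1 and Tgfbi, 19 glycolysis genes, 25 genes of oxidative phosphorylation and 8 genes of acetyl-CoA and histone acetylation. Cyba of the oxidase stood at 1490 and 1449 CPM against 1819 and 1787, and Atp5e of the ATP synthase at 1220 and 1321 against 1318 and 1408. Srebf2, a regulator of sterol genes, was the best expressed of the acetyl-CoA list, at 65.2 and 120 CPM against 42.6 and 47.0 (1.08, SE 0.46, edgeR adjusted p = 0.262). In simulated sums of this size, 14.1% of genes changed 2-fold were recovered and 75.6% of those changed 4-fold, so a miss does not show that levels were alike. The simulation held no difference between libraries, so recovery in the real sums may differ. Of 14 cell cycle genes only Mki67 passed, beside 2.13% lower over all genes, with 0 and 2 UMIs against 65.7 and 74.8 CPM (-3.02, SE 0.82, edgeR adjusted p = 0.0295).

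Among genes outside all lists, the largest fold changes upward included Cd8b1, Jaml, Gpr141, F10, Klrd1 and Mcemp1. Jaml, an adhesion molecule of migrating leukocytes, stood at 158 and 97.6 CPM against 11.2 and 29.9 (2.90, SE 0.52, edgeR adjusted p = 0.000739). F10, or coagulation factor X, stood at 65.2 and 82.6 CPM against 2.10 and 34.2 (2.42, SE 0.66, edgeR adjusted p = 0.0308). Lsp1, an actin-binding protein of leukocytes, stood at 521 and 368 CPM against 128 and 111 (1.96, SE 0.28, edgeR adjusted p = 2.46e-05), and its double-positive level of 242 and 229 CPM lay between. Gpr141 and Mcemp1 rose by 2.61 and 2.23.

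Cd8b1 and Klrd1 are genes of T and NK cells, and Klrd1 also of some dendritic cells. Cd8b1 stood at 83.8 and 60.1 CPM against 2.79 and 21.4 (2.99, SE 0.67, edgeR adjusted p = 0.00602). Its UMIs came from 3 and 8 monocytes, with 18.4 and 113 CPM in T cells. Klrd1 stood at 335 and 150 CPM against 34.9 and 66.3 (2.42, SE 0.42, edgeR adjusted p = 0.000395), with 129 and 308 CPM in T cells. Among the genes lower outside the lists, Vcam1, an adhesion molecule, stood at 9.31 and 45.1 CPM against 79.6 and 259 (-2.59, SE 0.49, edgeR adjusted p = 0.00126). Cadm1, another one, had 1 UMI in each library against 61.5 and 235 CPM (-4.13, SE 0.71, edgeR adjusted p = 0.000372). Acp5, a phosphatase of macrophages and osteoclasts, and Hpgds, a prostaglandin D synthase, had log2 fold changes of -2.51 and -3.98, on 8 and 1 UMIs over both libraries.

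In the 69 and 173 double-positive cells most of these levels were intermediate. Their CPM lay between those of monocytes and macrophages in both libraries for 43 of the 61 higher and 52 of the 72 lower genes. These genes were picked for a gap between those classes, and double-positive cells were gated on genes of both. The share over all tested genes was not computed, so the counts are a description only. In the double-positive cells Slpi stood at 56.9 and 69.8 CPM, Thbs1 at 33.2 and 296, and Hp at 14.2 and 53.2. Apoe, at 14352 and 2754 CPM, and Ms4a7, at 759 and 499, were nearer to the macrophages than to the monocytes. Their median of 2342 and 1508 UMIs was above that of monocytes and macrophages, and the part of 2 cells under 1 barcode was not tested. Scrublet called 6 and 6 barcodes doublets, 0.251% and 0.211%, and none was a monocyte. Such low shares do not show that doublets were absent, and how well Scrublet worked here was not tested.

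The monocytes were then split by the UMIs of Chil3 and Ly6c2, with no test, since the split uses the gate's genes. Chil3 was found in 22 and 25, Ly6c2 without Chil3 in 14 and 48, and neither in 23 and 42. In replicate 1 the 3 subsets differed widely in antigen presentation. The 8 class II genes summed to 1177 CPM with Chil3, to 8872 with Ly6c2 only and to 25197 with neither. In replicate 2 the order was the same but the span smaller, at 14136, 15478 and 21070 CPM.

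The same order held for H2-Ab1, at 241, 2205 and 5711 CPM in replicate 1 and 3628, 4553 and 6086 in replicate 2. Genes of blood monocytes ran the other way in replicate 1. Ccr2 stood at 664, 215 and 126 CPM there, and at 374, 247 and 321 in replicate 2. Fn1 stood at 664, 215 and 89.8 CPM, and at 486, 547 and 422. Thbs1 had its lowest value in the middle subset of replicate 1, at 181, 0 and 71.8 CPM, and stood at 1272, 494 and 181 in replicate 2. Isg15 showed no such order, at 513, 161 and 736 CPM and at 449, 600 and 562.

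The subset of replicate 1 with neither gene carried genes of dendritic cells. Cst3, or cystatin C, stood at 12697 CPM there against 1449 in the Chil3 subset, and Napsa, an aspartic protease, at 898 against 302. Klrd1 stood at 575 CPM in 13 of its 23 cells and had 0 UMIs in the Chil3 subset of both libraries. These 23 cells entered the class through Plac8 and Ms4a4c. Their median was 2327 UMIs per cell, against 1242.5 in the Chil3 subset. They held 55682 of the 107412 UMIs of the replicate 1 monocytes, so the values of that sum, such as class II and Klrd1, depend much on them. Outside the gate, Hp had UMIs in 1 of them, Ifitm6 in 5 and Ccr2 in 5. In replicate 2 the same subset held 3415 CPM of Cst3, 221 of Napsa and 141 of Klrd1. Lyz2 was found in all 22 Chil3 cells of replicate 1, at 14457 CPM, and in 12 of the 23 cells with neither gene, at 1688.

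With 2 or more UMIs of Ly6c2 plus Chil3 in place of the sum over 4 genes, the mean share of monocytes was 1.37%, and 80 of the 125 calls that could be tested again passed. The summed level of T and NK genes was highest in the subset with Ly6c2 only, where it was 1237 and 953 CPM, against 60.4 and 486 with Chil3 and 180 and 643 with neither. In replicate 1 most of it came from Nkg7, with 8 UMIs in 1 cell, and Cd8b1, with 8 UMIs in 2 of the 14 cells. Ms4a4b, which is outside these lists, had 5 UMIs in 1 cell. Of the 17 Cd8b1 UMIs in both libraries, 13 were in that subset. Bst2 and Tcf4 belong to the list of plasmacytoid markers. With Chil3, with Ly6c2 only and with neither, Bst2 stood at 483, 1774 and 718 CPM in replicate 1. In replicate 2 it stood at 187, 441 and 462 CPM. Tcf4 had 3, 5 and 2 UMIs in replicate 1 and 3, 5 and 3 in replicate 2. Which kind of cell carried Cd8b1 was not tested. With 10 lymphoid genes also at 0, 144 genes passed, and 99 of the 118 earlier calls that could be tested again were among them.

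**Figure D4:**
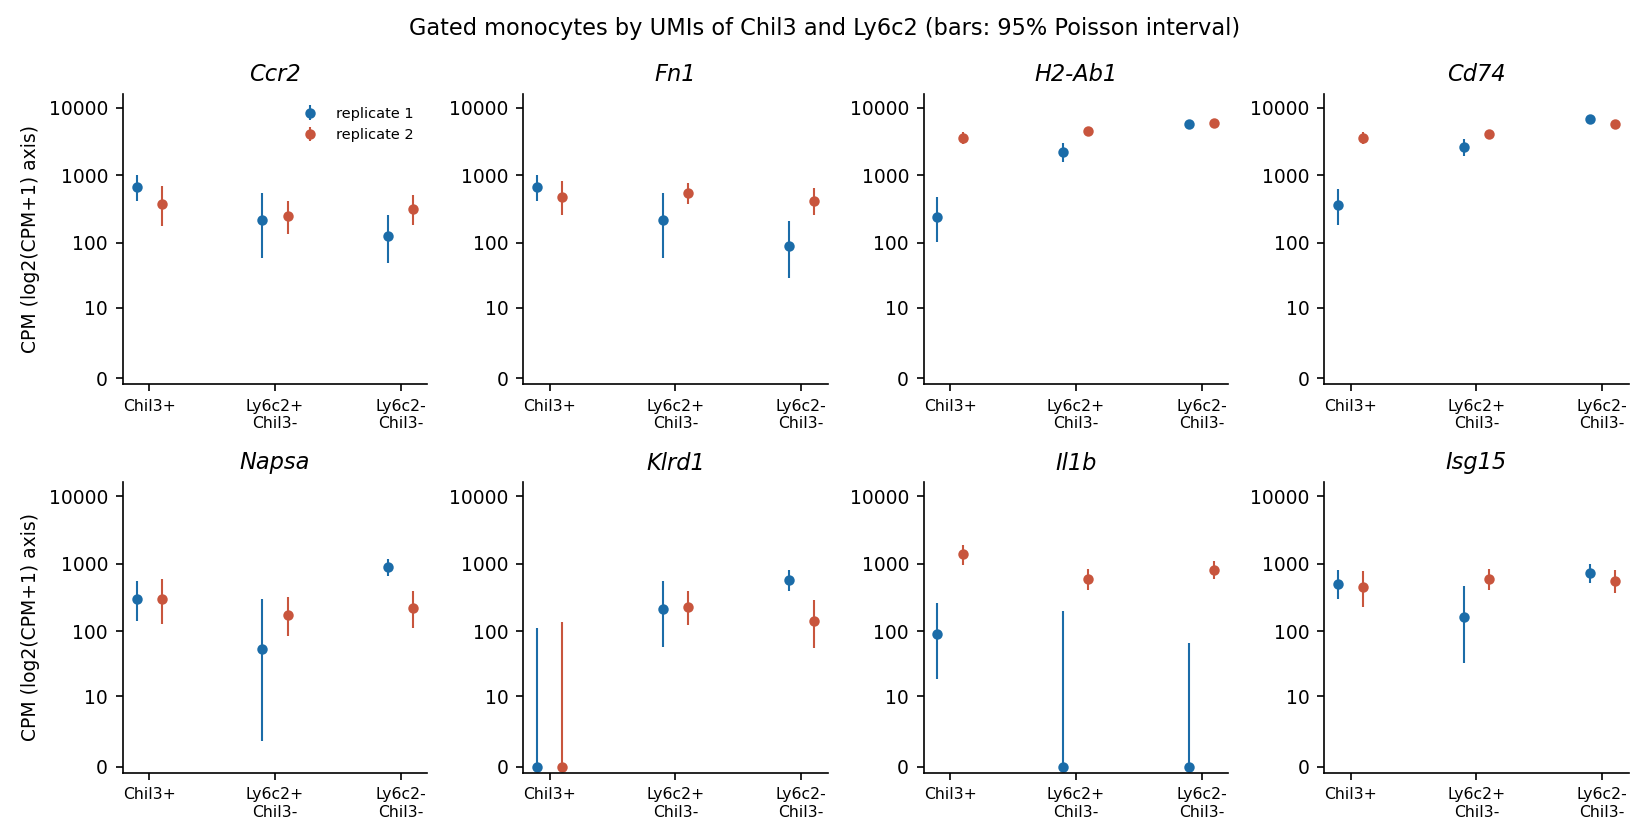
CPM of 8 genes (y axis, log2(CPM+1) scale) in monocytes with Chil3, with Ly6c2 and no Chil3, and with neither, for replicate 1 (blue: 22, 14 and 23 cells) and replicate 2 (red: 25, 48 and 42 cells), with exact 95% Poisson intervals. H2-Ab1 and Cd74 climb from left to right, steeply in replicate 1, Klrd1 is at 0 in both Chil3 subsets, and Il1b is near 0 in replicate 1.

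The 2 libraries differed in single genes by far more than counting error, and with 1 library on each side these are values without a test. Lyz2, which encodes lysozyme M and is among the most abundant transcripts of mouse monocytes and macrophages, had 704 UMIs in the monocytes of replicate 1 and 2 in replicate 2, or 6554 and 15.0 CPM. Over all barcodes it had 18663 and 49 UMIs. Its neighbour Lyz1, a similar gene nearby on chromosome 10, went the other way, with 0 and 32 UMIs in the monocytes and 35 and 814 over all barcodes. The 2 genes share much of their sequence, so part of the reads could be assigned to either. In replicate 2 Lyz2 was low in the C1q macrophages too, at 17.1 CPM against 6925 in replicate 1.

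Il1b, the inflammatory cytokine interleukin-1 beta, had 3 UMIs in the monocytes of replicate 1 and 112 in replicate 2, or 27.9 and 841 CPM. In the macrophages it stood at 32.8 and 481 CPM, so the libraries differed the same way in both classes. Against macrophages it did not pass (0.66, SE 0.32, edgeR adjusted p = 0.370). Several genes had 0 UMIs in the monocytes of replicate 1, and their folds are lower bounds against 3 UMIs. Ly6i was at least 15.3-fold, Fcgr4 at least 13.4-fold, Cxcl16 at least 11.8-fold and the decoy receptor Il1r2 at least 9.41-fold higher in replicate 2.

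Mgp and Crabp1, genes of stromal or tumour cells, were at least 9.95-fold and 7.53-fold higher in replicate 2. Cxcl16 differed little between the libraries in macrophages, at 395 and 507 CPM, while Ly6i differed there too, at 5.59 and 139. Ly6i had an adjusted p of 0.0430 by edgeR against macrophages (1.48, SE 0.42), but its log2 ratio was -0.35 in replicate 1, where no monocyte UMI was found. On the other side Chil3 (987 and 315 CPM), Cst3 (7206 and 2403) and Cd48 (307 and 75.1) were higher in replicate 1. Of these, Cd48 differed little in the macrophages, at 153 and 165 CPM; Chil3 was held low there by the rule.

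Over the 595 genes with at least 20 monocyte UMIs in both libraries together and 200 CPM in the higher library, the median log2 ratio of replicate 2 to replicate 1 was 0.39 in monocytes and 0.27 in macrophages. Pearson's r between the 2 classes was 0.726 across these genes, which share libraries and are not independent replicates. Genes with extreme ratios, such as Lyz2 at -8.45 in monocytes and -8.57 in macrophages, weigh heavily in r. For Crabp1 and Mgp, at 0 UMIs in replicate 1 in both classes, the ratios rest on a prior of 0.5 UMI. An r without such genes was not computed.

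**Figure D5:**
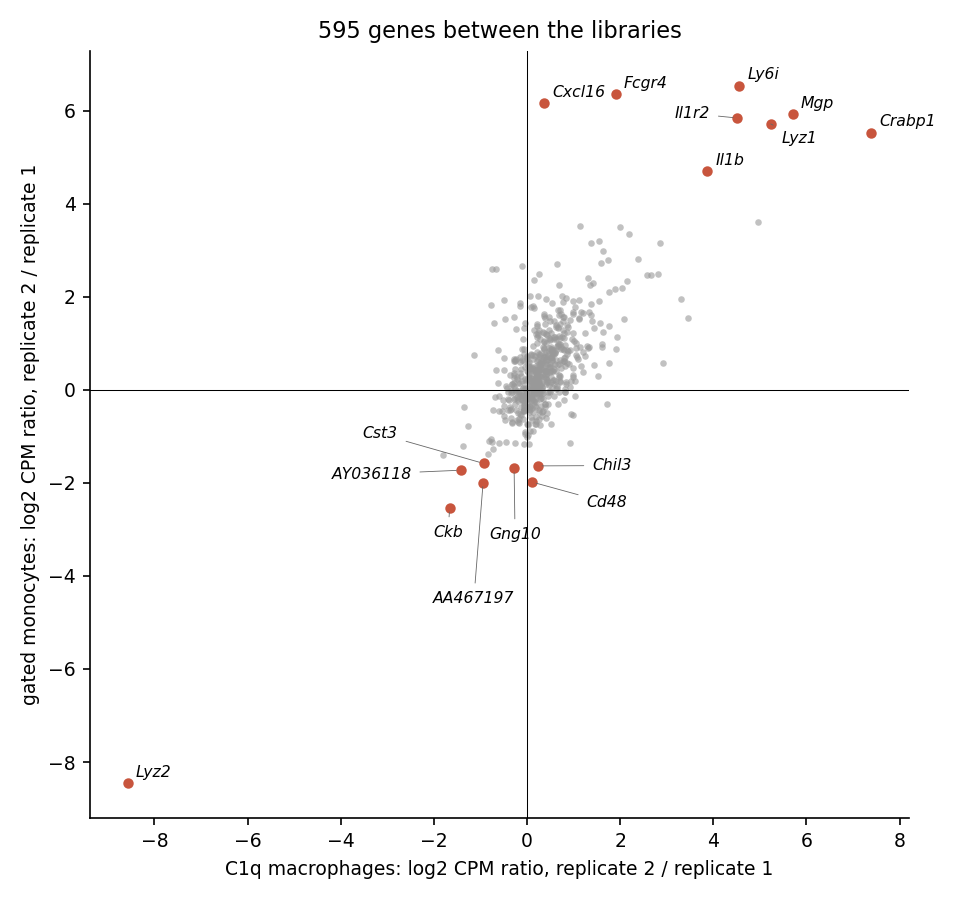
Log2 CPM ratio of replicate 2 to replicate 1 for 595 genes in C1q macrophages (x axis) and gated monocytes (y axis), with the 8 genes with the largest monocyte ratio each way in red (a prior of 0.5 UMI is added). Lyz2 stands alone at the lower left, Il1b and 5 of the genes at 0 in replicate 1 are high in both classes, and Cxcl16 and Fcgr4 are high in the monocytes with ratios of 0.36 and 1.90 in the macrophages.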

How the data were processed

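The authors deposited raw UMI counts per gene and barcode for 2 droplet libraries, unnormalized per the file headers and values. Cell Ranger 6.0.1, Seurat 4.0.1 and the build mm10 (GRCm38) are named in the submitters' processing notes; no source used here gives their order or the annotation. The libraries held 2749 and 2937 barcodes, 5688000 and 5862342 UMIs, a median of 1309 and 1375 UMIs per barcode (lowest 500) and 0 shared barcodes.

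Counts were summed per class and library and tested in edgeR 4.0.16 under R 4.3.3 (TMM, quasi-likelihood test, filterByExpr, library as a block, Benjamini-Hochberg over all tested genes, threshold 0.05). The pairing of classes comes from the library they share. Classes with under 20 cells in a library stayed out of the fit: type 2 dendritic-like cells (22 and 3) and neutrophils (5 and 8) were therefore not compared, and the 20 genes of the class rules or given as markers were not tested. The labels do not say that the replicates are separate animals, and the block takes up the spread between the libraries. The p-values thus set the difference between classes against a spread between these libraries only. With 1 residual degree of freedom, edgeR estimates that spread largely from all genes together. A p-value therefore does not measure how much the single gene varied between the libraries, and a gene whose library ratios disagree can pass. CPM intervals are exact Poisson and shares exact binomial at 95%. DESeq2 1.42.0 and Scrublet (scanpy 1.11.5) served as alternatives. The fit was tested on simulated data: of 3332 genes, 5.48% of the calls were false. These sums were drawn from a single mean profile, with the same spread for every gene and no difference between libraries. The real libraries differed, so the rates of false and recovered calls need not hold for them.

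Named genes were the rule genes and markers; up to 4 passing members per list with the largest fold change, or the best expressed one; outside the lists, the 10 largest fold changes each way with at least 50 CPM in the higher class in both libraries; between libraries, the 8 largest ratios each way; and the 10 most abundant genes. Others named (such as Ccr2, Csf1r, Spp1, Ly6i and Cxcl10) were chosen after their values were seen. The members and lists were chosen with earlier results of these data known. Positions come from GENCODE M21 and promoters from RefSeq. A few genes are not reported here.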

Additional observations from a re-analysis of the deposited data

How the results depend on the processing

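The share of monocytes was 2.47% to 4.05% when either library was left out, 1.45% with a monocyte sum of 5 or more and no C1q UMI, and 1.37% with 2 or more UMIs of Ly6c2 plus Chil3. Against the 133 genes called, 7 passed without the replicate block, 36 with DESeq2 (all among the 133; 18 higher and 18 lower), 45 with at least 500 genes and under 5% mitochondrial UMIs, 50 with that stricter gate and 67 after thinning to 500 UMIs. Chosen after seeing the data, 46 passed with 5 classes in the fit and 69 with all 4 planned classes; their causes were not tested. Between 115 and 189 passed under RLE scaling, no filter on low counts, Scrublet calls left out, the Ly6c2 and Chil3 gate, lymphoid genes at 0 and Gm42418 left out, the last of these also chosen after seeing the data. The 189 came with Scrublet calls left out, which removed only 3 and 2 macrophage barcodes and no monocyte. The number of calls thus moved widely on a small change of cells. Of the calls, 51.7% were higher with RLE and 28.9% with no filter. Ccl12, Cd81, Mrc1, Ms4a7, Pf4, Selenop and Slpi passed in all 13 refits. Among the interferon-induced calls, Ifi203 and Ifi211 passed in 5 of 13, Samhd1 and Zbp1 in 4 of 13 and Ifi205 in 5 of 12. Isg15 passed in 12 of 13, Ifitm3 in 11, Slfn5 and Ifi27l2a in 10, and Slfn1 in 8 of 12. Calls outside that list varied as much. Clec4e passed in 4 of 13, Clec4d and Cebpb in 5 of 13, Fcgr4 in 6 of 13 and Fn1 in 7 of 13. Klf4 passed in 6 of 12, Mki67 in 4 of 10 and F10 in 5 of 10. Thbs1, S100a4, Apoe and Trem2 passed in 12 of 13 and Gsr in 11 of 13. Of the 133 calls, Gng10 (lowest value -0.53) and Ifitm1 (-0.10) changed sign among the 13 refits. Of the genes named in the text, signs changed for the Gapdh log2 fold change (0.0252 with lymphoid genes at 0) and the Atp5e log2 fold change (0.00132 with DESeq2, 0.00120 with RLE and 0.0305 with the stricter cell filter), which did not pass in any of these, and for the Ly6i log2 fold change (-0.35 without replicate 2 and 1.62 without replicate 1), whose cause was not tested. A fit with a single library left no residual degrees of freedom. At this depth a monocyte count of 0 allows up to 27.9 CPM in replicate 1 and 22.5 in replicate 2.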
